A study of Mus musculus with 82 samples.

Results

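Transcription of the mitochondrial genome was read on both of its strands in nascent RNA data from V6.5 mouse embryonic stem (ES) cells. The members were all deposited reads that mapped to chrM, which were 84635 of 37537172 reads in 82 libraries. Each read was placed at the 3′ end of its RNA, the base at which the run-on reaction stopped, with the RNA strand taken as opposite to the strand in the list. The reads were counted on the 37 mitochondrial genes of GRCm38 (2 rRNA, 13 mRNA and 22 tRNA genes), on the strand opposite to each gene, between genes and in the non-coding control region. Counts are in unique molecular identifiers (UMIs), each a labelled RNA molecule left after removal of duplicates.

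Mitochondria transcribe their circular genome with a polymerase of their own, Polrmt, together with the factors Tfam and Tfb2m, from promoters in or beside the control region. The heavy-strand promoter gives a long RNA that holds both rRNAs, most mRNAs and most tRNAs, and the light-strand promoter gives an RNA of the opposite direction that holds mt-Nd6 and the other tRNAs. Both RNAs are cut at the tRNAs, which lie between the other genes, and light-strand RNA that stops early in the control region serves as a primer for replication of the genome. RNA of each promoter is called heavy-strand or light-strand RNA below, after the promoter.

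The study set up a nascent RNA assay for single cells and compared it with bulk versions of the same click chemistry. AGTuC labelled nascent RNA by run-on with propargyl nucleotides in bulk, at a detergent concentration that opens the nuclear membrane. inAGTuC used less detergent, so that nuclei stayed whole and were barcoded in groups per well, and scGRO–seq barcoded nuclei that had been sorted singly. All groups were untreated V6.5 cells, a line grown in serum with leukaemia inhibitory factor. The study speaks of nuclei in each assay, while its methods describe nuclei isolation and permeabilization of cells as alternative preparations, and the labels do not say which was used for a library. Replicates were 10 scGRO–seq batches, formed by 2512 cells of 35 libraries, 4 inAGTuC libraries, of which 2 were from batch Exp208, and 2 AGTuC libraries of the single batch Exp125c, in which batch and assay cannot be told apart. All p-values measure the spread between these sums, which can be technical. A batch is the experiment code in a library's title, and Exp260 and Exp260b were counted as separate batches. Whether these are independent is not given, and joining them was not tested. Without either of them, the strand comparison of AGTuC and scGRO–seq over mRNA genes below had an adjusted p of 0.0545 (exact permutation test). The 10 scGRO–seq batches were taken as those of the study's own cell set, which the labels do not mark. The study's text gives 10 batches for its cell cycle clusters and counts more batches of experiments in all. Its whole set held more cells and plates than the cells and libraries kept here, so these sums are not that set. Over all scGRO–seq libraries, the same filter on cells kept 2814 cells in 14 batches, so the filter alone does not give these 10.

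The sums held 223119 to 4928371 UMIs per scGRO–seq batch, 623265 to 1462003 per inAGTuC library, and 2231837 and 4755740 in the AGTuC libraries. All 10 ES cell markers, such as Pou5f1 and Sox2, had UMIs in each assay, with a summed level of 310 to 1681 CPM (UMIs scaled by the total of the batch or library) in scGRO–seq batches, 458 to 974 in inAGTuC and 1743 to 1859 in AGTuC libraries. The 6 fibroblast markers summed to at most 53.5 CPM, and Col3a1 and Col1a2 were at 0 in AGTuC. The 5 primitive endoderm markers summed to 17.8 to 68.6 CPM in scGRO–seq, 32.3 to 56 in inAGTuC and 29.4 to 32.3 in AGTuC. The 3 neuroectoderm markers summed to 56 and 60.3 CPM in AGTuC, 12.3 to 17.9 in inAGTuC and 5.38 to 31.4 in scGRO–seq, and their part in differences between assays was not tested. The deposited scGRO–seq list of Exp261_c16 shared 99.7% of its molecules with the inAGTuC list of that name and entered no scGRO–seq sum. Kept cells carried 254 barcodes, of which 226 occurred in more than 1 library. A molecule that recurred in another library, at 1 position and strand and under 1 barcode and UMI, was not counted, and such molecules were 4.16 to 61.2% of mitochondrial reads in scGRO–seq libraries, 5.54 to 37.0% in inAGTuC and 9.74 and 17% in AGTuC. Of all reads they were 1.72 to 47.4%, 4.67 to 23.5% and 0.245 to 0.511%, so that in AGTuC this step removed a larger part of mitochondrial than of all reads.

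Many RNA ends in scGRO–seq sums lay at tRNA genes, and the stretches below show where. Each is 32 bases long, from 20 bases up to the annotated 3′ end of a tRNA gene to 12 bases past it, 5′ to 3′ along the RNA, from mm10 chrM (GRCm38). Capitals mark bases at which at least 5% of the scGRO–seq UMIs of that stretch ended. The coordinates are chrM:49-80, chrM:1074-1105, chrM:3755-3786 and chrM:3894-3925 on the plus strand for the heavy-strand tRNAs, and chrM:15344-15375 and chrM:5006-5037 on the minus strand for the light-strand tRNAs.
mt-Tf: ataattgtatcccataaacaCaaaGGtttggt
mt-Tv: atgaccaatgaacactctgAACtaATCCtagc
mt-Ti: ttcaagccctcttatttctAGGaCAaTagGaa
mt-Tm: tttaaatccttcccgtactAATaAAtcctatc
mt-Tp: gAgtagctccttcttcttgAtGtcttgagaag
mt-Ta: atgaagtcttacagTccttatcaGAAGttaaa

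The bases in capitals held 2590 of 3221 UMIs (80.4%) at mt-Tf, the tRNA that starts the heavy-strand RNA, and 2066 of 2476 (83.4%) at mt-Tv, which lies between the rRNA genes. At mt-Ti and mt-Tm, which lie between mt-Nd1 and mt-Nd2, they held 483 of 568 (85.0%) and 195 of 343 (56.9%). At the light-strand tRNAs mt-Tp and mt-Ta they held 134 of 257 (52.1%) and 174 of 232 (75%). Most of mt-Ta has a nuclear copy, and mt-Ti, mt-Tm and mt-Ta were chosen for display after their values were seen.

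The other sequence of interest lies in the control region. It is the light-strand RNA across the conserved sequence blocks CSB3, CSB2 and CSB1, chrM:16035-16161 on the minus strand, with the blocks in capitals in that order. In this stretch 76 UMIs of scGRO–seq, 35 of inAGTuC and 11 of AGTuC ended.
CSB3 to CSB1: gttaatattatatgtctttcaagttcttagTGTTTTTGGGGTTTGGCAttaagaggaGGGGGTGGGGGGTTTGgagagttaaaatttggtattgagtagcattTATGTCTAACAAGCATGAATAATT

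Mitochondrial RNA was a small part of the nascent RNA in each assay and, among the sums compared, was least in AGTuC. In the 10 scGRO–seq batches 0.0699% (Exp156) to 1.25% (Exp160) of UMIs were mitochondrial, with a median of 0.173%, or 28301 of 11621648 UMIs in all. In inAGTuC libraries the share was 0.185% and 0.119% (both Exp208), 0.0547% (Exp234) and 0.314% (Exp261), with 7494 of 4362245 UMIs in all. In AGTuC it was 0.0114% (254 UMIs, 95% Wilson interval 0.0101 to 0.0129%) and 0.0101% (482 UMIs, 0.00927 to 0.0111%). Each AGTuC library was below these 10 batches and 4 inAGTuC libraries, while scGRO–seq and inAGTuC overlapped. The scGRO–seq batches outside these 10, except Exp261, were counted over all barcodes. Of these, Exp256 (37 UMIs, 0.00946%) and Exp263b (61 UMIs, 0.00618%) were below both AGTuC libraries.

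The difference in means from scGRO–seq was -0.334 percentage points and was within the spread of the batches (two-sided exact permutation test, p = 0.197, adjusted over the 3 pairs of assays 0.295, smallest p possible 0.0152). That spread was set by Exp160 and Exp208, at 1.25 and 0.844%. On the log2 scale, chosen after the data had been seen, the difference was -4.34 (exact permutation test, p = 0.0152, adjusted 0.0455). inAGTuC differed from scGRO–seq by -0.176 points (exact permutation test, p = 0.470). Within Exp208, the only batch among these sums with both assays, scGRO–seq was at 0.844% and the inAGTuC libraries at 0.185 and 0.119%. In Exp234, whose scGRO–seq library is outside these 10 batches, scGRO–seq was lower, at 0.0277% (21 UMIs of all barcodes) against 0.0547%. The value is a share of all UMIs of a bulk reaction. In AGTuC, fewer cells with mitochondrial RNA, less of it per cell and more nuclear RNA beside it cannot be told apart.

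**Figure D1:**
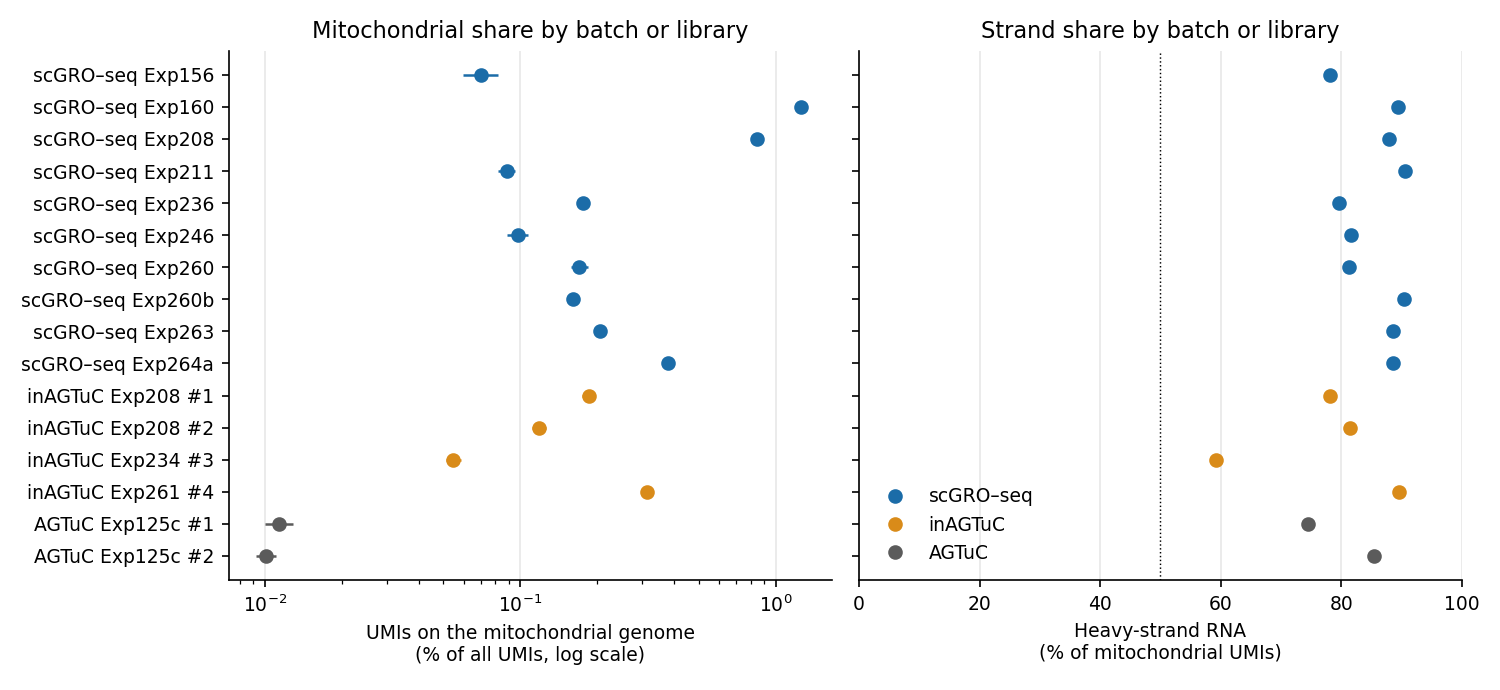
Mitochondrial share of UMIs (left, percent, log scale, bars are 95% Wilson intervals that cover counting error only) and share of mitochondrial UMIs from heavy-strand RNA (right, percent, dotted line at equal strands) for 10 scGRO–seq batches, 4 inAGTuC libraries and 2 AGTuC libraries. The AGTuC libraries sit at 0.0114 and 0.0101% on the left, below all other points, and all points lie above the dotted line on the right.

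Most mitochondrial RNA in each assay came from the heavy-strand promoter. Heavy-strand RNA was 78.2 to 90.5% of mitochondrial UMIs in scGRO–seq batches, with a median of 88.3%. It was 78.1, 81.5, 59.2 and 89.5% in inAGTuC libraries, where Exp234 was lowest, and 74.4 and 85.5% in AGTuC. Heavy-strand RNA exceeded light-strand RNA in 10 of 10 batches, by a mean log2 ratio of 2.64 ± 0.56 (SD, n = 10; two-sided exact sign-flip test, p = 0.00195, adjusted over 6 tests 0.00293, the smallest p possible). The assays overlapped in this share. It differed by -5.70 points between AGTuC and scGRO–seq, by -8.55 between inAGTuC and scGRO–seq and by 2.85 between AGTuC and inAGTuC (exact permutation tests, adjusted p = 0.318, 0.249 and 0.800). Leaving out 1 batch or library gave -11.2 to -0.163, -12.7 to -2.58 and -3.12 to 8.38 points. Within Exp208 it was 88.0% in scGRO–seq and 78.1 and 81.5% in inAGTuC.

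The genes mt-Rnr1 and mt-Rnr2, which give the 12S and 16S rRNAs of the mitochondrial ribosome, held most of that heavy-strand RNA. In scGRO–seq 18306 of the heavy-strand UMIs (75.3%) ended in their spans, in inAGTuC 4696 (75.1%) and in AGTuC 504 (83.9%). mt-Rnr1 had 179, 504 and 2611 CPM as the lowest, median and highest scGRO–seq batch, against 28.7 and 31.1 in AGTuC. mt-Rnr2 had 211, 485 and 9481 CPM, against 38.5 and 43.3. The inAGTuC libraries had 124 to 1169 CPM on mt-Rnr1 and 173 to 982 on mt-Rnr2, so that both AGTuC libraries were below all others. These levels include ends near tRNA genes, described below. Such ends were 35.9% of mt-Rnr1 and 18.5% of mt-Rnr2 sense UMIs in scGRO–seq, against 0 and 0.685% in AGTuC. Of all features tested, 25.0% were called lower in AGTuC than in scGRO–seq.

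Per kb, the rRNA genes exceeded the 12 heavy-strand mRNA genes in 10 of 10 batches, by a log2 ratio of 5.28 ± 1.57 (SD, n = 10; exact sign-flip test, p = 0.00195, adjusted 0.00293). The lowest batch was at 3.49, the median at 4.86 and the highest, Exp160, at 9.10. The rRNA spans begin with bases at which ends past mt-Tf and mt-Tv fall, and without those ends the mean was 4.90. Several mRNA genes have copies in the nuclear genome, described below, at which few reads were counted. At positions with no such copy, and without tRNA ends, the mean was 4.14 ± 1.71 (SD, n = 10). With all positions, the inAGTuC libraries had a mean of 5.41 ± 0.63 (SD, n = 4), and the AGTuC libraries were at 4.18 and 5.22. The rRNA and mRNA genes compared lie on the same strand, and whether their UMIs come from 1 transcript or from several was not tested. Reads that matched ribosomal sequences had been removed by the authors, and whether mitochondrial rRNA was among those sequences is not given in the sources used here.

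Exp160 stood apart because of 1 library. 2 of its 11 libraries passed the filter on cells, of which that with 26 kept cells had 36 mitochondrial UMIs (0.0543%) and that with 66 cells had 4536 (1.52%), a 28-fold difference. In other batches with more than 1 such library, the highest over the lowest was between 1.04- and 3.91-fold. In Exp160, 3922 of 4572 mitochondrial UMIs (85.8%) were heavy-strand RNA on the rRNA genes, against 52.5 to 73.8% in the other batches. Pooled scGRO–seq without Exp160 held 71.2% of heavy-strand UMIs on the rRNA genes, in place of 75.3%.

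Heavy-strand density dropped just past the 3′ end of mt-Rnr2. In scGRO–seq the last 100 bases of mt-Rnr2 held 600 UMIs, and the following stretches of 100 bases held 346, 62, 53, 34 and 24. The same stretches held 138 and then 38, 26, 19, 14 and 4 UMIs in inAGTuC, and 16 and then 2, 0, 1, 0 and 4 in AGTuC. The first of the stretches past mt-Rnr2 is mostly mt-Tl1, a leucine tRNA, which alone had 263 UMIs in scGRO–seq. Without Exp160 the stretches held 292 and then 209, 60, 53, 32 and 24 UMIs, and mt-Tl1 had 127.

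**Figure D2:**
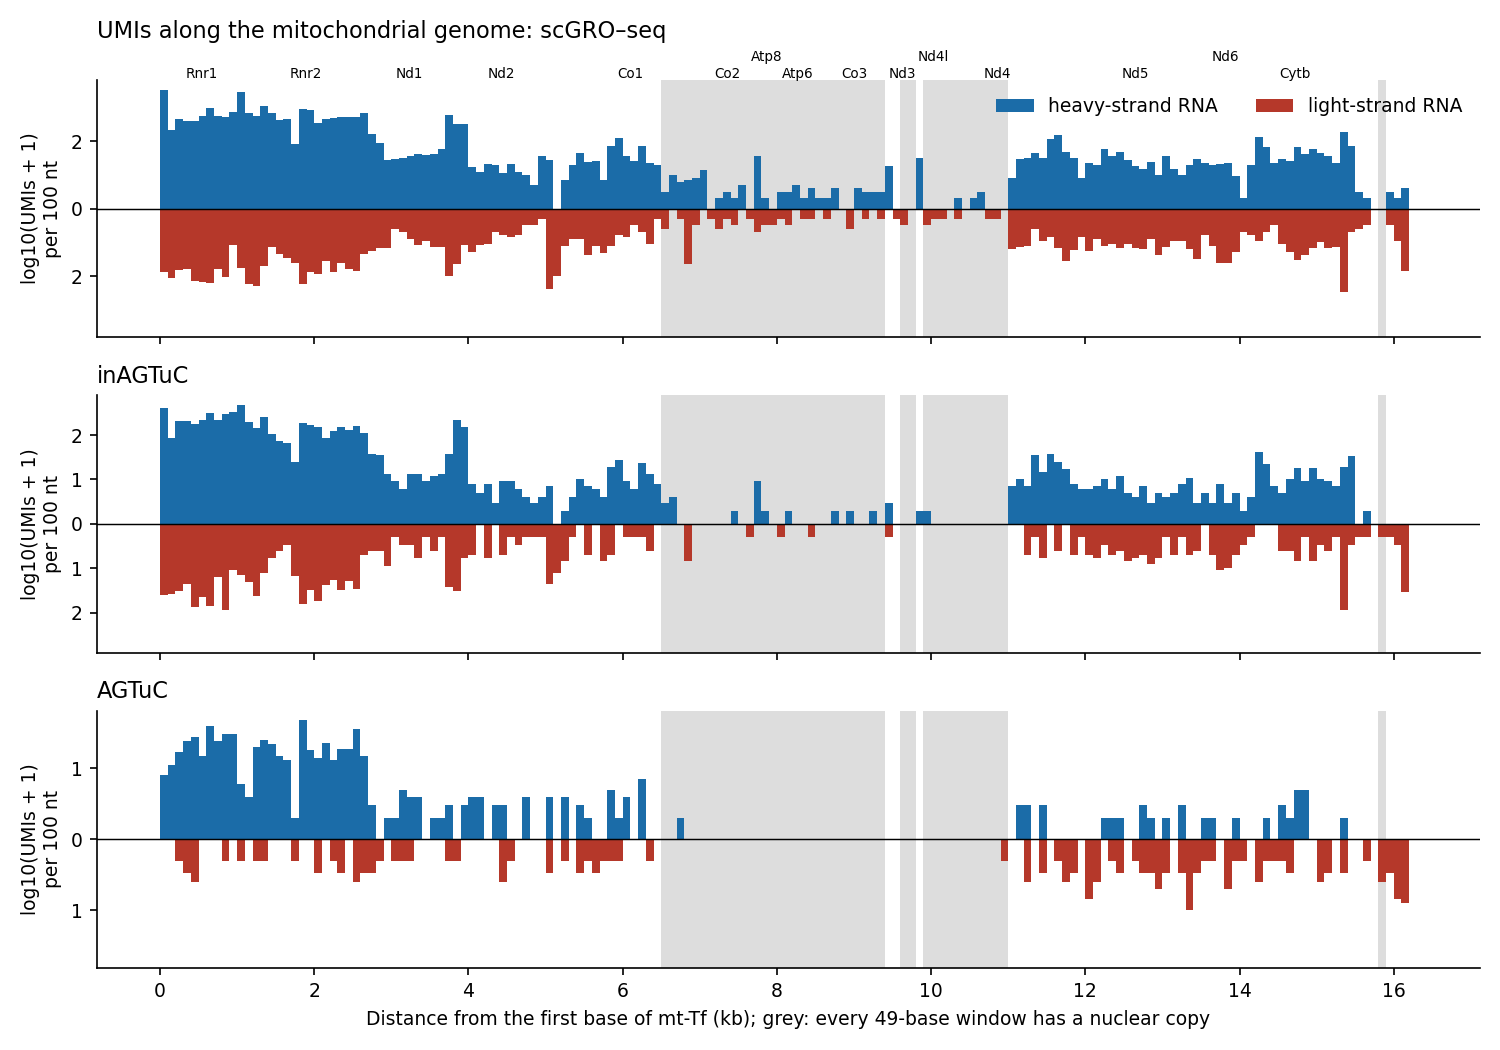
UMIs along the mitochondrial genome in stretches of 100 bases, as log10(UMIs + 1), with heavy-strand RNA upwards and light-strand RNA downwards, for scGRO–seq, inAGTuC and AGTuC sums (the vertical scales differ). The rRNA genes hold the tall block at the left of each panel, grey marks stretches in which no position is unique to the mitochondrial genome, and in AGTuC the light strand has more UMIs than the heavy strand at unique positions between mt-Co3 and mt-Cytb (68 and 30).

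Comparisons between mRNA genes are limited by copies of the mitochondrial genome in nuclear chromosomes. Of 16251 windows of 49 bases, the median length of mitochondrial reads in inAGTuC, 5848 (36%) had an identical copy in the nuclear genome, most in a copy at chr1:24611535-24616184 of mm10 that spans mt-Co1 to mt-Nd4. A position was called unique where its window had no such copy. mt-Co2, mt-Atp8, mt-Atp6, mt-Co3 and mt-Nd4l had no unique position and mt-Nd3 had few, so their counts of 0 to 13 sense UMIs in scGRO–seq say nothing of their transcription.

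Among mRNA genes with unique positions, levels in scGRO–seq are given as sense UMIs per kb of unique positions outside the tRNA ends. They were highest for mt-Co1 (631), the catalytic subunit of cytochrome c oxidase. mt-Nd4 (494), mt-Nd1 (412), mt-Nd5 (252), mt-Nd6 (236) and mt-Nd2 (160), subunits of complex I, and mt-Cytb (483), the subunit of complex III, followed. The rRNA genes were at 5128 for mt-Rnr1 and 5869 for mt-Rnr2 on the same scale, and without Exp160 at 4636 and 3560, so that their order rests on that batch. The order of the mRNA genes comes from summed UMIs, and its 6 pairs of neighbours were compared within batches, a comparison added after the data had been seen. None passed the test. mt-Co1 was above mt-Nd4 in 7 of 10 batches (log2 ratio 0.30 ± 0.42, SD; exact sign-flip test, p = 0.0586, adjusted 0.176), and mt-Nd4 above mt-Cytb in 8 of 10 (0.37 ± 0.45; exact sign-flip test, p = 0.0293, adjusted 0.176). The other 4 pairs had adjusted p of 0.293 to 0.986. On the scale of CPM over the whole gene, mt-Co1 had 10.5, 30.4 and 133 as the lowest, median and highest batch and mt-Cytb had 2.99, 37.9 and 127.

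In AGTuC the order was mt-Co1 (22.1 sense UMIs per kb of unique positions), mt-Nd6 (16.1), mt-Nd1 (14.8), mt-Nd2 (13.7), mt-Nd4 (12), mt-Cytb (10.5) and mt-Nd5 (5.97). mt-Nd6 is the only mRNA of the light-strand RNA, and it rests on 8 UMIs there. Of the 13 mRNA genes none had more than 18 sense UMIs in AGTuC, so the order rests on few UMIs, and it was not tested.

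Along the heavy-strand RNA, mRNA genes in the promoter-near part (mt-Nd1 to mt-Atp6) exceeded those in the far part (mt-Co3 to mt-Cytb) by a log2 density ratio of 0.28 ± 0.39 (SD, n = 10; exact sign-flip test, p = 0.0410). The lowest batch was at -0.26 and the highest at 0.86. inAGTuC libraries had a mean of 0.92 ± 0.70 (SD, n = 4), and AGTuC libraries were at 0.76 and 1.06. This call was lost under 6 of 10 other ways of counting and without any 1 of 7 batches, and without ends at tRNA genes the ratio was 0.05 (exact sign-flip test, adjusted p = 0.755).

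Over mRNA genes the heavy-strand share was lower in AGTuC than in scGRO–seq, while inAGTuC overlapped with both. For the 12 heavy-strand mRNA genes, at unique positions and without the ends at tRNA genes described below, heavy-strand RNA was 64.4, 75.7 and 87.1% of UMIs in the lowest, median and highest scGRO–seq batch. It was 69.8, 84.4, 39.5 and 84.0% in inAGTuC libraries, where Exp234 was again lowest and the first pair was from Exp208, whose scGRO–seq value was 79.7%. In AGTuC it was 52.3% (34 heavy- and 31 light-strand UMIs) and 46.2% (37 and 43). Both AGTuC libraries lay below all scGRO–seq batches and above the inAGTuC library of Exp234.

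AGTuC differed from scGRO–seq by -27.0 points (two-sided exact permutation test, p = 0.0152, adjusted over 3 pairs 0.0455, the smallest p possible), in a comparison chosen after the data had been seen. Counted over all deposited reads, the means were 48.6 and 69.2%, and the difference of -20.6 points missed the threshold (exact permutation test, adjusted p = 0.0909). Without any 1 batch the adjusted p was 0.0545, the smallest that 9 batches allow. The difference between AGTuC and inAGTuC was -20.2 points (exact permutation test, adjusted p = 0.400, smallest p possible 0.0667), and that between inAGTuC and scGRO–seq was -6.83 points (exact permutation test, adjusted p = 0.400). Without the inAGTuC library of Exp234 they were -30.1 and 3.16 points, so that the direction of the second rests on that library.

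Over the rRNA genes at the same kind of positions, heavy-strand RNA was 91.9 and 98% in AGTuC, 77.9, 81.6, 62.4 and 91.4% in inAGTuC, and 77.6, 88.7 and 97.7% in the lowest, median and highest scGRO–seq batch. The difference of 6.79 points between AGTuC and scGRO–seq was within the spread (exact permutation test, adjusted p = 0.200). Within scGRO–seq, the heavy-strand share was higher over rRNA than over mRNA genes in 9 of 10 batches, by 11.9 points on average (range -4.49 to 27.4; exact sign-flip test, p = 0.00586).

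**Figure D3:**
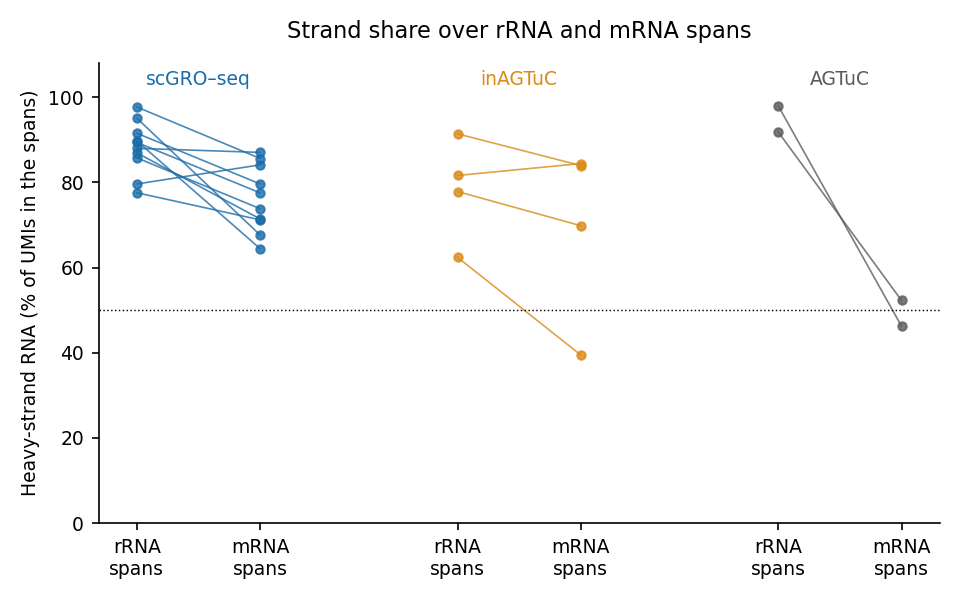
Heavy-strand RNA as a percentage of UMIs over the rRNA and the 12 mRNA gene spans, at unique positions and without ends at tRNA genes, with a line for each batch or library and a dotted line at equal strands. In AGTuC the lines fall from 91.9 and 98% to 52.3 and 46.2%, and 9 of 10 scGRO–seq lines fall.

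Gene by gene, light-strand RNA opposite to an mRNA gene was 17.3% of UMIs on mt-Nd1, 19.7% on mt-Nd2, 20.1% on mt-Co1, 17.9% on mt-Nd4 and 20.7% on mt-Cytb in scGRO–seq sums. At unique positions outside tRNA ends it was 32% on mt-Nd2, where 48.8% of sense UMIs lay near tRNA ends. mt-Nd5, which lies next to mt-Nd6, had 36.6% (255 antisense and 441 sense UMIs). In AGTuC the antisense share was 21.1% on mt-Nd1, 22.2% on mt-Nd2, 33.3% on mt-Co1, 50.0% on mt-Nd4, 80.0% on mt-Nd5 (40 antisense and 10 sense UMIs) and 52% on mt-Cytb. The mt-Nd5 counts were 14 antisense and 6 sense UMIs in the smaller AGTuC library and 26 and 4 in the other. Over mt-Nd6, whose own RNA is the light strand, 117 sense and 86 antisense UMIs were counted in scGRO–seq, 29 and 19 in inAGTuC and 8 and 2 in AGTuC.

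Light-strand RNA was compared near its promoter (mt-Cytb back to mt-Co3) and far from it (mt-Atp6 back to mt-Rnr1). In scGRO–seq it was denser in the far part in 10 of 10 batches, with a log2 ratio of -2.13 ± 1.12 (SD, n = 10; lowest -4.45, highest -0.54; exact sign-flip test, p = 0.00195, adjusted 0.00293). The strand opposite to the rRNA genes held 2042 light-strand UMIs, or 51%, in scGRO–seq and 62.7% in inAGTuC, against 15.6% in AGTuC. Batches varied widely in this and overlapped with AGTuC, from 24 of 398 light-strand UMIs in Exp264a and 29 of 189 in Exp263 to 444 of 480 in Exp160, beside 14 of 65 and 7 of 70 in the AGTuC libraries. Without the rRNA genes the ratio was -0.84 and negative in 8 of 10 batches (exact sign-flip test, adjusted p = 0.0187). Without the rRNA genes and the ends at tRNA genes it was -0.25 (exact sign-flip test, adjusted p = 0.377), with Exp264a at -2.02 and the other batches between -0.60 and 0.55. At unique positions of the 12 heavy-strand mRNA genes, without the tRNA ends, the direction turned to 0.60 (exact sign-flip test, adjusted p = 0.0234), so that the direction depends on which positions are counted.

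In AGTuC the ratio was positive, at 0.56 and 1.37 with all positions and at 1.12 and 1.74 without the rRNA genes and tRNA ends. inAGTuC libraries had -3.11 ± 1.17 (SD, n = 4) with all positions. Without the rRNA genes and tRNA ends 5 of 10 scGRO–seq batches were positive as well, up to 0.55, and inAGTuC libraries had -1.11 ± 1.40 (SD, n = 4), with Exp261 at 0.50. At unique positions, AGTuC had 16.5 light-strand UMIs per kb near the promoter and 6.82 in the far part without the rRNA genes. The same densities were 143 and 162 per kb in scGRO–seq and 31.9 and 50.4 in inAGTuC. No test between assays was run on this ratio.

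The control region, which holds the light-strand promoter and the origin of heavy-strand replication, had more of the mitochondrial RNA in AGTuC than in scGRO–seq. It held 0 to 0.982% of mitochondrial UMIs in scGRO–seq batches (median 0.456%), 0.501 to 1.13% in inAGTuC libraries and 3.54% (9 UMIs) and 2.07% (10 UMIs) in AGTuC. The AGTuC libraries exceeded all others, and the difference from scGRO–seq was 2.32 points (two-sided exact permutation test, p = 0.0152, adjusted 0.0455, the smallest p possible). Without any 1 batch the adjusted p was 0.0545, the smallest that 9 batches allow. With all scGRO–seq libraries in place of the 10 batches, the difference was 1.37 points and the call was lost (exact permutation test, adjusted p = 0.525). inAGTuC differed from scGRO–seq by 0.254 points (adjusted p = 0.210, exact permutation test), and within Exp208 scGRO–seq was at 0.352% and inAGTuC at 1.13 and 0.616%.

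All 19 UMIs of AGTuC in the control region were light-strand RNA, which was 14.1% of its light-strand UMIs. None of the 601 heavy-strand UMIs of AGTuC ended there, which allows a share of up to 0.499%. In scGRO–seq 89 light- and 35 heavy-strand UMIs ended in the control region, and in inAGTuC 41 and 16. The light-strand ends of scGRO–seq gathered in CSB3, an 18-base block that held 53 of the 89, and 24 of the 41 of inAGTuC were there as well. In AGTuC 1 of 19 was in CSB3, and 7 lay in chrM:16123-16172, which runs from within the block towards the promoter.

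The heavy-strand ends in the control region lay at its far edge, in the 50 bases after the end of the annotated genes, with 25 of 35 in scGRO–seq and 14 of 16 in inAGTuC. The origin of light-strand replication, 32 bases between mt-Tn and mt-Tc, held no heavy-strand UMI in any assay and 67 light-strand UMIs in scGRO–seq, 3 in inAGTuC and 0 in AGTuC. As 22 of its 32 bases have a nuclear copy, counts of 0 there say little of transcription. Of the light-strand UMIs in scGRO–seq, 28 were at its last base, 5191, the base after mt-Tc.

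RNA ends at tRNA genes made up a large and variable part of mitochondrial RNA in scGRO–seq. The stretch from 2 bases before to 8 bases after the annotated 3′ ends of the 22 tRNA genes held 7121 UMIs, or 25.2% of mitochondrial UMIs, in scGRO–seq, 852 (11.4%) in inAGTuC and 13 (1.77%) in AGTuC. The batches ranged from 0.153% in Exp160 to 66% in Exp263, with a median of 17.6%. The share was 0.501 to 19% in inAGTuC libraries and 0.787 and 2.28% in AGTuC. Exp160 lay below both AGTuC libraries, so that the assays overlapped, and the difference between assays was not tested. The ends came from 1765 of the 2512 cells.

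The 22 tRNA genes had peaks at the annotated end itself (749 UMIs in scGRO–seq), and at 5 and 6 bases past it (2395 and 1382), while 9 bases past the end held 6. In inAGTuC 136 UMIs ended at the annotated end, and 153 and 205 at 5 and 6 bases past it. Positions 73 and 74 past mt-Tf, with 85 and 183 of these, had UMIs in only 1 of the 4 inAGTuC libraries. In AGTuC no UMI ended 5 to 8 bases past a tRNA. The mRNA genes had no peak at their ends, and their highest position was 11 bases before the end, with 69 UMIs, of which 64 were on mt-Nd4. The peak at 5 and 6 bases was mostly that of mt-Tf and mt-Tv, which are followed at once or within a base by an rRNA gene. Its main positions, 73, 74 and 1098, each had UMIs in 6 of 10 scGRO–seq batches. mt-Tk, mt-Th, mt-Td and mt-Tg had 30, 11, 12 and 12 UMIs at the annotated end as their highest position, and were named after their values were seen. The lists hold positions and no read sequence, so bases that are not in the genome could not be read.

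**Figure D4:**
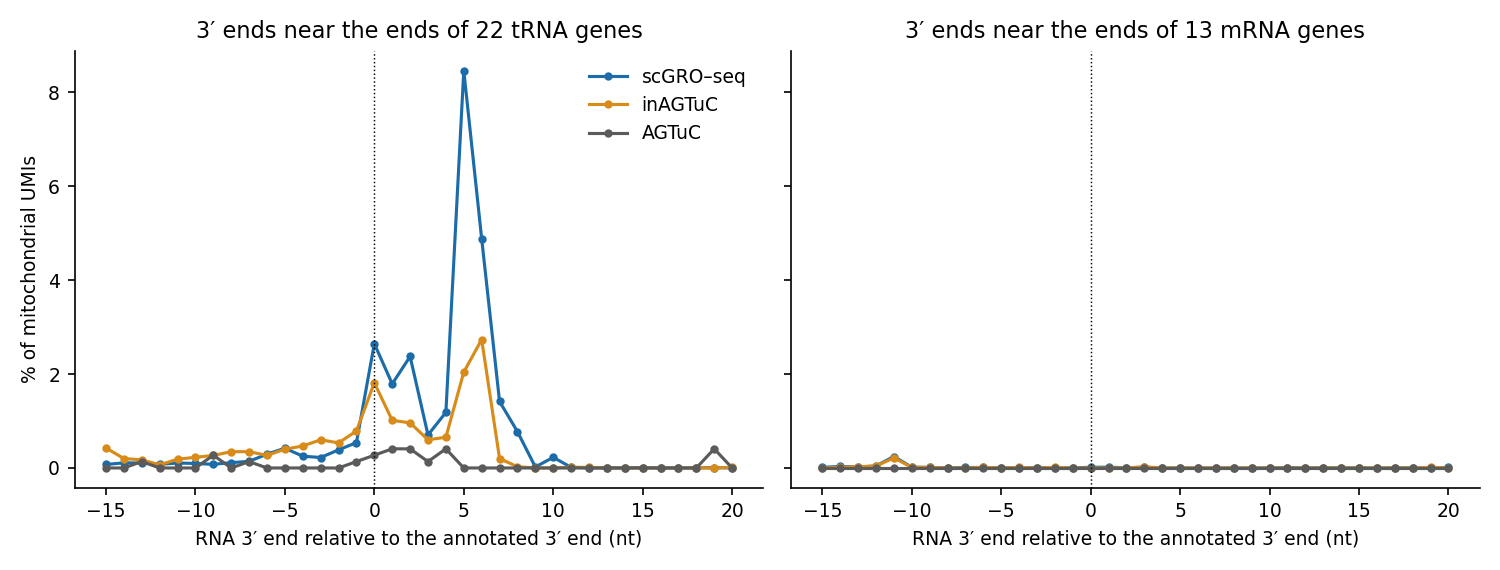
Percentage of mitochondrial UMIs that ended at each base from 15 before to 20 after the annotated 3′ ends of the 22 tRNA genes (left) and the 13 mRNA genes (right), for scGRO–seq, inAGTuC and AGTuC sums. The scGRO–seq and inAGTuC sums peak at 0 and at 5 and 6 bases past tRNA ends (in inAGTuC mostly through 1 of 4 libraries at 5 and 6). The main scGRO–seq positions at 5 and 6 bases each had UMIs in 6 of 10 batches. AGTuC has no such peak, and at mRNA ends the highest value of scGRO–seq is 0.244%, at 11 bases before the end.

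The 5 heavy-strand positions with most UMIs in scGRO–seq were all at these 2 tRNAs. Positions 73 and 74 of chrM, 5 and 6 bases past mt-Tf, held 1189 UMIs of 667 cells and 1181 UMIs of 798 cells. Position 1098, 5 bases past mt-Tv, held 887 UMIs of 569 cells, position 1093, the last base of mt-Tv, held 268, and position 69, the base after mt-Tf, held 220. Positions 73, 74 and 1098 each had UMIs in 6 of 10 batches, and positions 1093 and 69 in 8. No cell had more than 20 UMIs at any of them. On the light strand the 5 were 15356, the end of mt-Tp, with 99 UMIs, and 5013, 5023, 5191 and 5011 at mt-Ta and mt-Tc with 63, 59, 28 and 23. The highest position of AGTuC was 655, within mt-Rnr1, with 7 UMIs.

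Mapping quality moved with these ends. In scGRO–seq, 41.1% of UMIs near tRNA ends had a mapping quality under 10, against 14.1% elsewhere on the mitochondrial genome, and at position 1098 it was 92.2%. In AGTuC the shares were 23.1 and 9.68%. Its part in the peaks was not tested. With tRNA ends in place, ends within 2 bases of any annotated gene end were more frequent than their share of positions by a log2 ratio of 2.64 ± 1.24 (SD, n = 10; exact sign-flip test, p = 0.00391, adjusted 0.00469). Without the tRNA ends that ratio was -0.12 (exact sign-flip test, p = 0.812). Without the tRNA ends and the rRNA genes it was 1.27 and above 0 in 8 of 10 batches (exact sign-flip test, p = 0.0801, adjusted 0.120).

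By sense UMIs per kb in the scGRO–seq sum, the highest tRNA genes were mt-Tv (13319), mt-Tm (4870) and mt-Tf (4368), and the lowest were mt-Ty (164), mt-Te (14.5) and mt-Tn (0). mt-Ty and parts of mt-Te and mt-Tn have nuclear copies, while mt-Tv, mt-Tm and mt-Tf have none. mt-Tl1, which follows mt-Rnr2, was at 3507 and without Exp160 at 1693, and mt-Tp, the light-strand tRNA at the edge of the control region, at 3746. The order depends on how batches are weighted. The median CPM over batches was 45.2 for mt-Tv, 26.6 for mt-Tm, 17.5 for mt-Tf, 13.8 for mt-Tp and 9.53 for mt-Tl1, whereas by the mean CPM mt-Tl1 (49.3, with 373 in the highest batch) was second to mt-Tv (70.5) and mt-Tm (26) was the fifth. The 14 heavy-strand tRNA genes exceeded the heavy-strand mRNA genes per kb by a log2 ratio of 3.58 ± 1.2 (SD, n = 10; 10 of 10 batches, exact sign-flip test, p = 0.00195, adjusted 0.00293). The ratio was 3.39 ± 2.54 in inAGTuC (SD, n = 4), and -0.32 and 1.26 in AGTuC. At unique positions without tRNA ends, the mean ratio was 2.85 in scGRO–seq and 2.87 in inAGTuC, and the AGTuC libraries were at -1.16 and 0.84.

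The last base of the RNA also differed between assays at unique positions outside the tRNA ends. In AGTuC 47.3% of heavy-strand UMIs ended in C, which makes up 24.4% of such heavy-strand positions, and 31.2% of light-strand UMIs did, against 12.5% of positions. In scGRO–seq 28.3 and 15.6% ended in C. G was the last base of 20.5% of heavy-strand UMIs in scGRO–seq and 22.5% in inAGTuC against 12.2% of positions, and of 7.77% in AGTuC. These are sums with no test.

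Single cells carried mitochondrial RNA of both strands in each of the 10 batches. After each cell had been thinned to 1000 UMIs, 76.3% ± 17.3 of cells (SD over 10 batches, range 48.9 to 98.7%) had a mitochondrial UMI, and 24.2% ± 19.4 (range 3.82 to 57.8%) had UMIs on both strands. Without thinning these were 94.4 and 56.3%, and 72 of 2512 cells had none. Heavy-strand RNA was found in 72% ± 18.8 of thinned cells and light-strand RNA in 28.5% ± 18.1.

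The share per cell was 0.182% in the median and 2.50% at most. By batch, the median cell ran from 0.0584% in Exp156 to 1.32% in Exp160. The tenth of cells with most mitochondrial UMIs held 20.4 to 50.4% of them, against 16.7 to 35.8% of all UMIs held by the tenth of cells with most UMIs. Barcodes that did not pass the filter on cells had mitochondrial shares between 0.0397% (Exp211) and 0.836% (Exp208) when summed, and in 7 of 10 batches above the median kept cell. The part that free mitochondrial RNA has in the cells' UMIs was not tested.

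**Figure D5:**
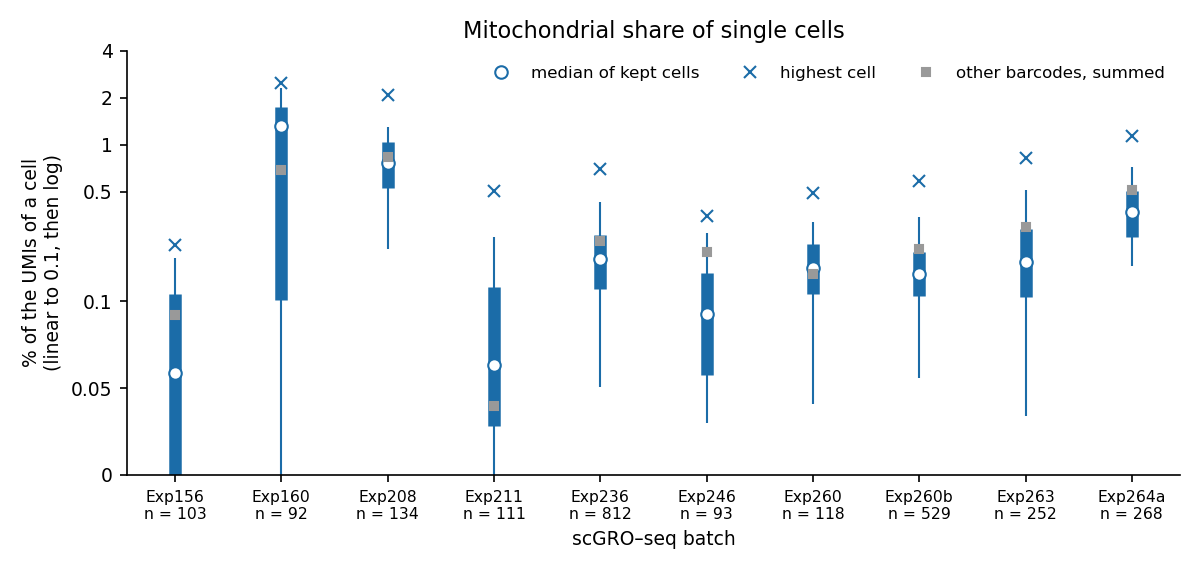
Mitochondrial share of the UMIs of single kept cells in 10 scGRO–seq batches (percent, linear up to 0.1 and logarithmic above), with the median (circle), the middle 50% (thick bar), the 5th to 95th percentile (thin line), the highest cell (cross) and the sum of barcodes that were not kept (grey square). The median cell is highest in Exp160 and Exp208, and the grey squares lie within the thin lines of all batches.

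Gene levels were compared between assays in a single fit over 16032 features with limma (voom, TMM scaling, Benjamini-Hochberg adjustment over all features). A sense or antisense count entered with at least 50 UMIs over all sums, which 18 of 37 sense and 17 of 37 antisense counts reached. All 18 sense counts and 14 of the antisense counts reached it on scGRO–seq UMIs alone, so that the counts tested were those high in scGRO–seq, and their number is no support for a direction.

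Between AGTuC and scGRO–seq 51% of all features were called, with 25.0% of all features lower and 26% higher in AGTuC. All 18 sense and all 17 antisense counts tested were lower in AGTuC, with a median log2 fold change of -5.12 and -4.48, against 0.09 over all features. Antisense counts on tRNA genes can hold ends of a neighbouring tRNA of the other strand. In scGRO–seq, 161 of 652 antisense UMIs on mt-Tq, 10 of 81 on mt-Ti and 0 of 120 on mt-Tw lay at unique positions outside tRNA ends. limma-trend called 13 sense and 6 antisense counts lower, and 2005 of all features lower beside 4005 in the main fit. Of those tested, 3 of the sense and 4 of the antisense counts were at 0 in both AGTuC libraries, and with these set to their bound of 3 UMIs the medians were -5.12 and -4.07. mt-Rnr1 was lower by -5.12 ± 0.81 (SE; limma adjusted p = 4.54e-05), mt-Co1 by -4.47 ± 0.86 (limma adjusted p = 0.000235) and mt-Nd6, the least changed, by -3.47 ± 1.02 (limma adjusted p = 0.00747). The mt-Rnr1 count includes ends near tRNA genes, which were 35.9% of its sense UMIs in scGRO–seq and 0% in AGTuC. mt-Tp, with no UMI in AGTuC, was at least 90.0-fold lower on the scale of the fit, with 3 UMIs set against the 251 of all scGRO–seq batches summed. Single batches ran from 4.70 to 93.0 CPM, and the bound does not cover that spread. All these folds depend on the scaling, with TMM factors of 1.58 and 1.54 in AGTuC and 0.619 to 1.35 in scGRO–seq batches. As given below, total UMIs in place of TMM moved the median over all features upwards.

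Among antisense counts, those opposite to mt-Nd5 and mt-Nd4 changed least, at -2.36 ± 0.57 and -2.46 ± 0.85 (SE; limma adjusted p = 0.00171 and 0.0198). Those opposite to mt-Rnr1 and mt-Rnr2 were at -6.36 ± 1.24 and -5.56 ± 1.52 (limma adjusted p = 0.000262 and 0.00435). Calls rested on the larger AGTuC library. Without it, fewer sense and antisense counts were called lower, in a fit that holds 1 AGTuC library. Calls over all features were also fewer in some fits without 1 batch or library, so the drop is not shown to be particular to mitochondrial counts.

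Between AGTuC and inAGTuC, 20.4% of all features were lower and 18% higher in AGTuC, and 14 sense and 11 antisense counts were lower, with median log2 fold changes of -4.04 and -3.84 (-3.96 and -3.31 with counts at 0 set to their bound). limma-trend called 5 sense and 2 antisense counts lower, and 1260 of all features lower beside 3263 in the main fit. Fewer were called without the larger AGTuC library, in a fit that holds 1 library of that assay. Without the inAGTuC library of Exp261, 7 and 6 were called. Calls over all features in that fit are not given. Across the fits without 1 batch or library, calls over all features were also fewer in some. The drop is therefore not shown to be particular to mitochondrial counts. Between inAGTuC and scGRO–seq limma called 0.00% of features. At an unadjusted p under 0.05 there were 771 features in all, 3 sense and 2 antisense counts among them, and limma-trend called none. The median log2 fold change was -1.01 for sense and -0.93 for antisense counts.

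Nuclear genes of a list for mitochondrial transcription, RNA processing and genome copying were higher in AGTuC more often than lower. The study reports that inAGTuC and scGRO–seq capture less RNA from polymerases paused near gene starts. The part of this in the differences below was not tested. Of a list of 36, 35 were found and 34 tested, and 14 were higher and 3 lower in AGTuC than in scGRO–seq, with a median log2 fold change of 0.70 beside 0.09 over all features and 26% of all features higher and 25.0% lower. Polrmt, the polymerase, had 4.55, 11.5 and 26.9 CPM as the lowest, median and highest scGRO–seq batch, 7.30 to 14.4 in inAGTuC libraries and 44.4 in each AGTuC library. It rose by 1.27 ± 0.30 on the log2 scale (SE; limma adjusted p = 0.00145).

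Tfam, which bends promoter DNA, had 41.4 and 43 CPM in AGTuC against 3.96, 10.6 and 16.4 in scGRO–seq batches, a log2 fold change of 1.11 ± 0.35 (limma adjusted p = 0.0112). Tefm, an elongation factor, changed by 1.13 ± 0.37 (limma adjusted p = 0.0139), and Tfb2m, which opens promoter DNA, had 0.23 ± 0.33 (limma adjusted p = 0.580). The others that rose were Fastk (2.30), Polg2 (2.02), Fastkd3 (1.77), Mrpl12 (1.61), Twnk (1.47), Rexo2 (1.26), Mterf4 (1.2), Mterf2 (1.15), Mgme1 (1.05), Ssbp1 (0.96) and Rnaseh1 (0.95), which are among the factors of the list for mitochondrial transcription, RNA processing and genome copying, with limma adjusted p of at most 0.0362. The 3 that fell were Prorp, the nuclease that cuts the 5′ end of mitochondrial tRNAs, Trnt1, which adds CCA to tRNAs, and Lrpprc, which binds mitochondrial mRNAs (-0.84, -1.09 and -0.70; limma adjusted p = 0.0499, 0.0485 and 0.0363). The directions of this list depend on the scaling. With total UMIs in place of TMM, the median over all features moved from 0.09 to 0.93, and 22 genes of the list were higher and 0 lower, while limma-trend called 4 higher and 0 lower.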

How the data were processed

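Each library's list of mapped reads was taken as deposited. Per the labels and methods, the authors trimmed reads with cutadapt, removed reads that matched ribosomal sequences, mapped the rest to mm10 with Bowtie2 and removed duplicates with UMI-tools; the score column that they deposited held mapping quality. The lists hold single reads and no count table, so molecules were counted here.

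Cells were kept with at least 1000 UMIs and 750 genes, in libraries of at least 24 such cells, and summed by batch. Gene positions and sequences came from the RefSeq GRCm38 genome. Densities used a pseudocount of 0.5. Assays were compared with two-sided exact permutation tests over sums and scGRO–seq ratios with exact sign-flip tests, both adjusted by Benjamini-Hochberg. Genes were compared with limma 3.58.1 (voom, TMM) in R 4.3.3. On simulated data of 16032 genes for AGTuC against scGRO–seq, it recovered 56.5% of genes set to a log2 fold of -2, 88% at 2 and 100% at -4 and 4. Of the calls made there, 5.20% were false. The simulated counts had a common spread and no batch differences, so they do not measure false calls in the real data. Other steps used Python 3.11.15, numpy 2.4.6, scipy 1.17.1 and pandas 2.3.3.

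All 37 genes were members, named by a written rule (mRNA and rRNA genes, the highest and lowest tRNA genes, those beside the rRNA genes and control region, and 5 positions per strand). Members, lists and tests were chosen with earlier results of these data known. Positions with nuclear copies, tRNA ends, the log2 share, the mRNA and rRNA spans and merging of UMIs within 50 bases were considered after seeing the data. Intervals cover counting error only.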

Additional observations from a re-analysis of the deposited data

Results flagged for a closer look

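The log2 density of rRNA over mRNA genes was 9.10 in the scGRO–seq batch Exp160, with a gap to the next batch of 0.528 of the whole range of the 10 batches, above Dixon's critical value. This was 1 of 18 sets of values examined, and chance sets apart about 1 in 20. Its library of 66 cells held 4536 of the batch's 4572 mitochondrial UMIs.

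Batch Exp168, outside the 10 batches compared, had the highest mitochondrial share of the batches counted, at 2.04% of 309664 UMIs of all barcodes in 3 libraries. The other batches counted outside the comparison had 0.00618 to 0.307%, and the AGTuC libraries 0.0114 and 0.0101%. The scGRO–seq libraries of Exp261 were not counted here.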

How the results depend on the processing

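The excess of heavy- over light-strand RNA, of rRNA over mRNA density and of tRNA over mRNA density kept its direction and passed the test under every alternative in which it was computed; leaving out each batch gave 2.57 to 2.73, 4.86 to 5.48 and 3.35 to 3.79. The promoter-near over far ratio of heavy-strand mRNA genes missed the threshold with mapping quality of at least 10 (0.12), cells by UMIs alone (0.23), all barcodes (0.22), UMIs merged within 50 bases (0.27), without tRNA ends (0.0497) and also without nuclear copies (0.18), and was 0.22 to 0.35 without each batch. The light-strand ratio was -0.25 without rRNA genes and tRNA ends, turned to 0.60 over mRNA genes alone, and was -2.31 to -1.87 without each batch. Ends at gene ends turned to -0.12 without tRNA ends, were 0.15 also without nuclear copies, 1.27 without rRNA genes and tRNA ends and 0.59 over rRNA genes alone, and 2.48 to 2.94 without each batch. The heavy-strand share of AGTuC minus scGRO–seq was -29.0 without the rRNA genes, -28.8 also without tRNA ends, -27.0 over mRNA and 6.79 over rRNA genes, and that of AGTuC minus inAGTuC was -22.7, -21.6 and -20.2. Leaving out each batch or library gave -11.2 to -0.163, -3.12 to 8.38 and, for inAGTuC minus scGRO–seq, -12.7 to -2.58. Over mRNA genes it was -20.6 with all deposited reads and -30.0 to -24.0 without each batch or library. With all scGRO–seq libraries the control region differences were 1.37 and -0.696 (AGTuC and inAGTuC minus scGRO–seq). Without each batch or library they were 1.58 to 3.05 and 0.127 to 0.336, and 1.33 to 2.80 for AGTuC minus inAGTuC. The mitochondrial share differed by -4.34 on the log2 scale, and by -0.364 to -0.233, -0.225 to -0.0753 and -0.195 to -0.109 without each batch or library (AGTuC and inAGTuC minus scGRO–seq, AGTuC minus inAGTuC). Cells with a mitochondrial UMI were 94.4% without thinning and those with both strands 56.3%. With all scGRO–seq libraries, thinned, these were 62.4 and 18.4%. The cause of these changes was not tested.

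Counts lower in AGTuC than in scGRO–seq were 7 to 18 sense and 4 to 17 antisense without each batch or library, and 1 to 16 and 1 to 12 against inAGTuC. Over all features, the number called lower also fell in some of these fits, below the 4005 and 3263 of the main fit. The drops in sense and antisense counts are thus not shown to be particular to mitochondrial counts. limma-trend called 6 antisense counts against scGRO–seq, and 5 sense and 2 antisense against inAGTuC. Mapping quality of at least 10 gave 7 antisense against inAGTuC, and a minimum of 1 UMI gave 37 and 34 against scGRO–seq and 34 and 25 against inAGTuC. The 37 include mt-Nd4l and mt-Tn, which had 0 sense UMIs in all 10 scGRO–seq batches and both AGTuC libraries. Calls at this minimum can thus follow from library size alone and are no support for a direction. Over all features, limma-trend called 2005 lower and 1681 higher, total UMIs 2628 and 7529, and a minimum of 1 UMI 9748 lower, beside 4005 and 4172; against inAGTuC these were 1260 and 640, 5007 higher and 8667 lower, beside 3263 and 2882. No paired analysis was possible because replicate numbers were given in accession order and the groups compared share only 1 batch, Exp208. AGTuC values rest on 736 mitochondrial UMIs in 2 libraries of 1 batch.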
